A study of Mus musculus with 6 samples.

Results

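Interleukin 10 (IL-10) and transforming growth factor beta (TGF-beta) form the main suppressive cytokine axis of dendritic cells, and 10 of its genes were followed in a mouse dendritic cell line labelled as overexpressing the vitamin D-binding protein. The genes were picked by symbol from the 54532 genes of the count table: the ligands Il10, Tgfb1, Tgfb2 and Tgfb3, the receptor chains Il10ra, Il10rb, Tgfbr1 and Tgfbr2, the transcription factor Stat3 and the feedback inhibitor Socs3. Each symbol had 1 row, so no choice between rows was needed. Of the 10 genes, 8 had enough counts to be tested between the groups, and Tgfb2 and Tgfb3 had too few.

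The cells were DC2.4, an immature mouse dendritic cell line, and the labels also give the cell type as dendritic cells derived from bone marrow. The Vdbp group was transfected with a vector for Vdbp (the mouse gene is Gc), and the control group with the empty vector. The labels name pTT5 as the vector of both groups, passaging 48 h after transfection and then selective medium for both, and 3 libraries for each group. Nothing in them tells if a group's 3 libraries are separate cultures, so the p-values below cover only the spread among these libraries, which may be technical. The sources used here do not give the time of RNA extraction or the number of clones.

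Messenger RNA was sequenced to 15563800 to 16529104 counts per library in the Vdbp group and 16376659 to 16710975 counts in the empty-vector group. Gc itself (ENSMUSG00000035540) had 0 counts in all 3 Vdbp libraries and 0 counts in all 3 empty-vector libraries, so the counts do not check the labels and Vdbp below means the libraries labelled so. Of the dendritic cell markers, Itgax, Irf8, Id2, Sirpa, Cd74 and Zbtb46 were among the tested genes, while the other 9 of 15 (Flt3, Batf3, Irf4, Ccr7, Xcr1, Clec9a, H2-Aa, H2-Ab1 and Ciita) averaged under 1 CPM (counts scaled to library size). Cd74, the invariant chain of class II molecules, stood at 226, 187 and 195 CPM in Vdbp replicates and 174, 168 and 164 CPM in empty-vector replicates, without overlap. The log2 fold change of Cd74 was 0.27 (edgeR unadjusted p = 0.0172, adjusted p = 0.781). With a trend with gene length and GC content removed from each library it was 0.13 (edgeR unadjusted p = 0.0849). Among the 6 tested dendritic cell markers, 1 had an unadjusted edgeR p under 0.05, beside 5.35% of all tested genes. The groups did not overlap in 1 of the 6, beside 10.9% of all tested genes. Sirpa and Id2 overlapped between the groups, with log2 fold changes of 0.05 and −0.23. Of the macrophage and monocyte markers 10 of 12 were tested, and their summed level was 4981 to 5409 CPM in Vdbp libraries and 5206 to 5954 in empty-vector libraries. They did not go one way: 3 had a log2 fold change above 0 and 7 below. Lyz2, lysozyme, stood at 1520 to 1632 CPM in Vdbp libraries and 1734 to 2095 in empty-vector libraries (log2 fold change −0.31), and Adgre1, the F4/80 antigen, at 556 to 614 and 660.1 to 690 CPM (−0.20). C5ar1, the receptor of complement C5a, stood higher in Vdbp libraries, at 245 to 289 CPM against 208 to 234 CPM in empty-vector libraries (0.25). These 3 genes of the 10 had an unadjusted p under 0.05, beside 5.35% of all tested genes, and none passed in edgeR. In 4 of the 10 the groups did not overlap, beside 10.9% of all tested genes. These were Lyz2, Adgre1, C5ar1 and Itgam (−0.20), the last named after its values were seen. Cd68 and Cd14 overlapped between the groups (−0.05 for both). T cell, B cell, neutrophil and fibroblast marker lists each summed to under 11 CPM in every library (highest 10.7), and Cd3e, S100a9, Col1a2 and Col3a1 had 0 counts in all 6. The markers under 1 CPM or at 0 are named after their values were seen. In bulk RNA, fewer cells of a type and less RNA per cell cannot be told apart.

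IL-10 is a homodimeric cytokine that binds a receptor of the ligand-binding chain Il10ra and the shared chain Il10rb, which is also part of receptors for other cytokines of the family. The receptor acts through the kinases Jak1 and Tyk2 on STAT3, which enters the nucleus and turns on genes such as Socs3. The TGF-beta ligands are made as latent complexes, and the active dimer is bound by the receptor kinase Tgfbr2, which then recruits and phosphorylates Tgfbr1, the kinase of the SMAD proteins. In dendritic cells both cytokines are known for restraining activation and for favouring regulatory T cells.

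Promoter sequences are shown first for Tgfb1 and Tgfb2, because almost all TGF-beta ligand counts came from one of them, and for Socs3, because it is a known target of STAT3. Each run holds the 250 bases before the RefSeq start of the gene on GRCm38.p6, read 5′ to 3′ on the gene's strand. Capitals mark matches on either strand to the GC box GGGCGG, to the TATA box letters TATAAA or to the STAT motif TTCNNNGAA.
Tgfb1, chr7:25686752-25687001, plus strand: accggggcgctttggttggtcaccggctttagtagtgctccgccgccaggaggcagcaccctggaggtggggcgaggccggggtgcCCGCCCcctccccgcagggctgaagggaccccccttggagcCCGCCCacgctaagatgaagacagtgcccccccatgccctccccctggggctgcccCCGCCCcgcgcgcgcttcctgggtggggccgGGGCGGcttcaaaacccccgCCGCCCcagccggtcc
Tgfb2, chr1:186705990-186706239, minus strand: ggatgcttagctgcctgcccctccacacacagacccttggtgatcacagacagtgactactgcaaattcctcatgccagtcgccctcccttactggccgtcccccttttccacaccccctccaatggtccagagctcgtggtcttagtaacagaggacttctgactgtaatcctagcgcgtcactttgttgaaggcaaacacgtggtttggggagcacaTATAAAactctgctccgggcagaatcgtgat
Socs3, chr11:117969367-117969616, minus strand: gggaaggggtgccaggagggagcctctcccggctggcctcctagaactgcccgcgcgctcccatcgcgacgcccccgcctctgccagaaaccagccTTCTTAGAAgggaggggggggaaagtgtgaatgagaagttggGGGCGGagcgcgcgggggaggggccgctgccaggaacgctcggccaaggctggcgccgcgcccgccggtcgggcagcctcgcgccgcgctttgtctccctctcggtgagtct

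The Tgfb1 window held 5 GC boxes, no TATAAA, 21 CpG dinucleotides and a GC content of 75.2%. The Tgfb2 window held no GC box, 8 CpG dinucleotides, a GC content of 53.6% and a single TATAAA from 31 to 26 bases before the start. Over all 32851 windows of this length, 32.7% held a GC box and 12.4% held TATAAA on either strand. The Socs3 window held 1 match to the STAT motif, 154 to 146 bases before the RefSeq start, and 7.02% of all windows held one. That start lies 681 bases inside the gene as the count table gives it. The windows of Tgfbr1 (2 of them), Tgfbr2, Stat3, Tgfb1 and Tgfb2 held no STAT motif. The SMAD-binding letters CAGAC, on either strand, were found in 2 places in the Tgfb2 window, once in the Tgfbr2 window and once in the second Tgfbr1 window, and 42.2% of all windows held them. A match describes letters only and shows no binding.

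**Figure D1:**
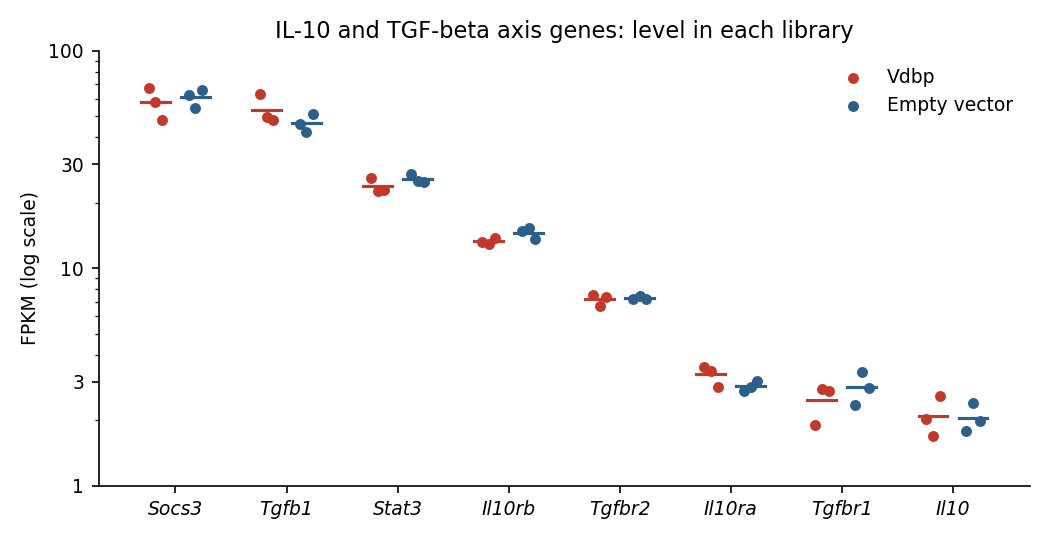
Level of the 8 tested genes in each library, in FPKM (fragments scaled to gene length and library size, log axis). Points are libraries, with Vdbp left and empty vector right of each gene, and bars are means of 3. Socs3 and Tgfb1 lie at 42.2 to 67.3 FPKM and Il10, Tgfbr1 and Il10ra at 1.68 to 3.53 FPKM, and the 2 groups overlap in every gene; Tgfb2 and Tgfb3, near 0, are not drawn.

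Levels between genes are compared on the deposited FPKM, which divide by gene length. Socs3 was highest, at 57.8 ± 9.72 FPKM in Vdbp cells and 61.0 ± 6.08 FPKM in empty-vector cells (SD, n = 3 each, as for the values that follow). Tgfb1 came next at 53.6 ± 8.59 FPKM in Vdbp cells and 46.6 ± 4.54 FPKM in empty-vector cells, and Stat3 followed at 23.9 ± 1.94 and 25.7 ± 1.13 FPKM in the same order of groups. These 3 genes lay above 93.0%, 91.5% and 81.8% of the tested genes. The receptor chains stood lower and were unequal. Il10rb averaged 13.3 ± 0.45 FPKM in Vdbp cells and 14.6 ± 0.86 FPKM in empty-vector cells, whereas its partner Il10ra averaged 3.25 ± 0.35 FPKM in Vdbp cells and 2.86 ± 0.15 FPKM in empty-vector cells. Tgfbr2 averaged 7.20 ± 0.42 FPKM in Vdbp cells and 7.29 ± 0.10 FPKM in empty-vector cells, and its partner Tgfbr1 averaged 2.47 ± 0.49 and 2.84 ± 0.50 FPKM in the same order. Il10 was the lowest tested member, at 2.09 ± 0.45 FPKM in Vdbp cells and 2.06 ± 0.32 FPKM in empty-vector cells, above 25.8% of the tested genes.

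Down this order, the ranges over all 6 libraries did not overlap between Tgfb1 and Stat3, Stat3 and Il10rb, Il10rb and Tgfbr2, or Tgfbr2 and Il10ra. Socs3 and Tgfb1 overlapped in range, although Socs3 was higher in 6 of 6 libraries by a slight margin in Vdbp replicate 3 (47.85 against 47.81 FPKM). Il10ra and Tgfbr1 overlapped, with Il10ra higher in 5 of 6 libraries, and so did Tgfbr1 and Il10, with Tgfbr1 higher in 5 of 6. The order thus splits into Socs3 and Tgfb1, then Stat3, Il10rb and Tgfbr2 each on a level of its own, then Il10ra, Tgfbr1 and Il10 close together.

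The RNA ratio of Il10ra to Il10rb on FPKM was 0.269, 0.260 and 0.207 in Vdbp replicates 1, 2 and 3, and 0.184, 0.186 and 0.221 in empty-vector replicates 1, 2 and 3. Vdbp replicates 1 and 2 lay above all empty-vector libraries, and Vdbp replicate 3 lay among them. The ratio of Tgfbr1 to Tgfbr2 was 0.254, 0.413 and 0.370 in Vdbp replicates and 0.323, 0.452 and 0.390 in empty-vector replicates, with the groups overlapping.

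None of the 8 tested genes passed the test between the groups. Counts were compared with edgeR's quasi-likelihood test, with Benjamini-Hochberg adjustment over 12844 tested genes and a threshold of 0.05. It called 0 of the 8, against a background of 0% of all tested genes, and the adjusted p-values of the 8 lay between 0.781 and 0.980. At an unadjusted p under 0.05 there were also 0 of the 8, where 5.35% of all tested genes were below that value. DESeq2 called 0 of the 10 genes (0.0166% of all genes with a value), with 0 at an unadjusted p under 0.05 (2.59% of all), and limma on log2 FPKM called 0 of the 8 (0% of all genes it tested). In limma 0 of the 8 also had an unadjusted p under 0.05, beside 5.2% of all genes it tested with a pseudocount of 1 and 5.06% with 0.1. In CPM the groups overlapped for all 8 genes, whereas they did not overlap for 10.9% of all tested genes.

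**Figure D2:**
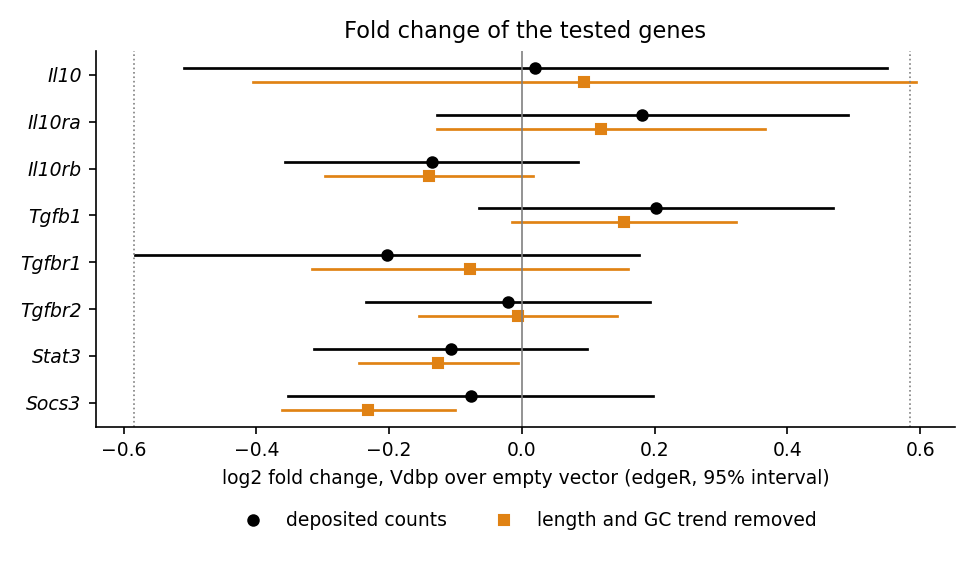
Log2 fold change of the 8 tested genes, Vdbp over empty vector, with the 95% interval from edgeR (x axis). Black circles use the deposited counts, orange squares a fit in which a trend with gene length and GC content was removed from each library; dotted lines mark 1.5-fold. All black intervals include 0 and lie within 1.5-fold, and the orange intervals of Socs3 and Stat3 lie below 0.

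The 95% intervals cover only the spread among these libraries, which may be technical, so they do not bound a difference between separate cultures. For all 8 genes the fold change had an interval inside 1.5-fold in either direction, and so inside 2-fold. The first held for 70.7% and the second for 89.3% of all tested genes. The interval of Tgfbr1, with a lower end at a log2 fold change of −0.583, lay only just inside 1.5-fold. The median log2 fold change of the 8 was −0.05, beside −0.01 for all tested genes, with 3 above 0 and 5 below, where 48.7% of all tested genes were above 0. Their median absolute log2 fold change was 0.12, beside 0.13 for all tested genes.

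Il10, the ligand gene, was counted at a low level in every library. Its counts were 43, 37 and 53 in Vdbp replicates 1, 2 and 3, and 38, 53 and 44 in empty-vector replicates 1, 2 and 3. The sums were 133 counts in the Vdbp group (exact 95% Poisson interval 111 to 158, counting error only) and 135 counts in the empty-vector group (113 to 160). The lowest and highest libraries, at 37 and 53 counts, had intervals of 26.1 to 51.0 and 39.7 to 69.3 counts that overlap, so a difference between libraries of this size was not detectable at this depth. Scaled to library size, Il10 averaged 2.76 ± 0.59 CPM in Vdbp cells and 2.71 ± 0.44 CPM in empty-vector cells. The log2 fold change was 0.02 (SE 0.24, 95% interval −0.51 to 0.55; edgeR adjusted p = 0.980), the widest interval of the 8 genes.

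Tgfb1 supplied 24933 of the TGF-beta ligand counts, beside 3 counts of Tgfb2 and 1 count of Tgfb3 over all 6 libraries. Tgfb2 had 0, 0 and 1 counts in Vdbp replicates and 0, 0 and 2 counts in empty-vector replicates, and Tgfb3 had 0 counts in all Vdbp replicates and 0, 1 and 0 counts in empty-vector replicates. For a count of 0 the floor was set at 3 counts, or 0.177 to 0.192 CPM in these libraries. The exact 95% Poisson interval of a count of 0 reaches further, to 3.69 counts. Levels of either gene below these limits could not be told from 0 in the libraries at 0. Per gene length, the ratio of Tgfb1 to Tgfb2 over the 6 libraries was 9546 (95% counting interval 3266 to 46291) and that of Tgfb1 to Tgfb3 was 16729 (3002 to 660792). Tgfb3 overlaps Ttll5, a gene on the opposite strand with 370 to 403 counts in Vdbp libraries and 389 to 465 in empty-vector libraries. Whether counting used strand is not given in the sources used here.

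Tgfb1 (chromosome 7, 25687002 to 25705077, plus strand, GRCm38) had the largest log2 fold change above 0 among the 8. It stood at 323, 251 and 242 CPM in Vdbp replicates 1, 2 and 3, and at 234, 216 and 260 CPM in empty-vector replicates 1, 2 and 3. Vdbp replicate 1 was the highest library, and the other Vdbp replicates lay within the range of the empty-vector group. The group means were 272 ± 44.4 CPM in Vdbp cells and 236 ± 22.1 CPM in empty-vector cells, a log2 fold change of 0.20 (SE 0.12, 95% interval −0.06 to 0.47; edgeR adjusted p = 0.781). Without Vdbp replicate 1 the log2 fold change was 0.06. That library also had the strongest relation between gene level and GC content, with a Spearman rho across genes, which are not independent replicates, of 0.73 between its deviation from the mean of all libraries and GC content. The rho of the other libraries was −0.03 and −0.40 in Vdbp replicates 2 and 3, and −0.07, −0.62 and 0.07 in empty-vector replicates 1, 2 and 3. With a trend with gene length and GC content removed, Vdbp replicate 1 was still the highest library for Tgfb1. It stood at 8.21 log2 CPM, and the empty-vector libraries at 7.82 to 8.02. The part of the GC relation in the level of Tgfb1 was not tested.

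The IL-10 receptor chains had log2 fold changes of opposite sign, neither past the test. Il10ra, the ligand-binding chain (chromosome 9, 45253837 to 45269149, minus strand), stood at 12.4, 11.8 and 10.03 CPM in Vdbp replicates and at 9.53, 10.08 and 10.6 CPM in empty-vector replicates. Vdbp replicates 1 and 2 were the highest libraries, and Vdbp replicate 3 lay between empty-vector replicates. Its log2 fold change was 0.18 (SE 0.14, 95% interval −0.13 to 0.49), and 0.12 without Vdbp replicate 1. Il10rb, the shared chain (chromosome 16, 91406164 to 91425834, plus strand), stood at 50.4, 49.3 and 52.7 CPM in Vdbp replicates and at 56.2, 59.1 and 52.1 CPM in empty-vector replicates. Only Vdbp replicate 3 and empty-vector replicate 3 crossed between the groups. The log2 fold change of Il10rb was −0.14 (SE 0.10, 95% interval −0.36 to 0.09), and it lay between −0.18 and −0.09 in all alternatives run. The annotated gene Gm21970, which overlaps Il10rb on the same strand, had 0 counts in all libraries.

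The TGF-beta receptor kinases overlapped between the groups. Tgfbr2, which binds the ligand first (chromosome 9, 116084293 to 116175360, minus strand), varied little, at 62.1, 55.1 and 60.5 CPM in Vdbp replicates and 59.3, 61.5 and 59.4 CPM in empty-vector replicates. Its log2 fold change was −0.02 (SE 0.10, 95% interval −0.23 to 0.19). Tgfbr1 (chromosome 4, 47353222 to 47414931, plus strand) varied more, at 12.6, 18.2 and 17.9 CPM in Vdbp replicates and 15.3, 22.2 and 18.5 CPM in empty-vector replicates. Vdbp replicate 1 was its lowest library and empty-vector replicate 2 its highest, the libraries with the highest and the lowest GC relation, and the GC content of Tgfbr1 (41.0%) was the lowest of the 10 genes. The part of the GC relation in this spread was not tested. The log2 fold change of Tgfbr1 was −0.20 (SE 0.17, 95% interval −0.58 to 0.18), and −0.08 (SE 0.11) when a trend with gene length and GC content was removed from each library. Its size rested on single libraries: it was −0.046 without Vdbp replicate 1, −0.061 without empty-vector replicate 2 and −0.32 without empty-vector replicate 1.

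Stat3, which carries the signal of the IL-10 receptor, and Socs3, which STAT3 induces and which limits signalling by related receptors, are the members downstream of the receptor. Stat3 (chromosome 11, 100885098 to 100939540, minus strand) stood at 251, 215 and 220.1 CPM in Vdbp replicates and at 258, 242 and 239 CPM in empty-vector replicates. Vdbp replicates 2 and 3 were the lowest libraries, and Vdbp replicate 1 lay within the empty-vector range. The log2 fold change was −0.11 (SE 0.09, 95% interval −0.31 to 0.10; edgeR adjusted p = 0.787), and it was −0.18 without Vdbp replicate 1 and −0.064 without Vdbp replicate 2. The far end of Stat3 overlaps the end of Stat5a on the opposite strand, which had 615 to 758 counts in Vdbp libraries and 643 to 684 in empty-vector libraries.

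Socs3 (chromosome 11, 117966079 to 117970047, minus strand) stood at 196, 169 and 139 CPM in Vdbp replicates 1, 2 and 3, and at 180.3, 159 and 192 CPM in empty-vector replicates 1, 2 and 3. Both the highest and the lowest library were from the Vdbp group. The log2 fold change was −0.08 (SE 0.13, 95% interval −0.35 to 0.20; edgeR adjusted p = 0.851). Without Vdbp replicate 3 it was 0.04, so its sign rested on that library.

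**Figure D3:**
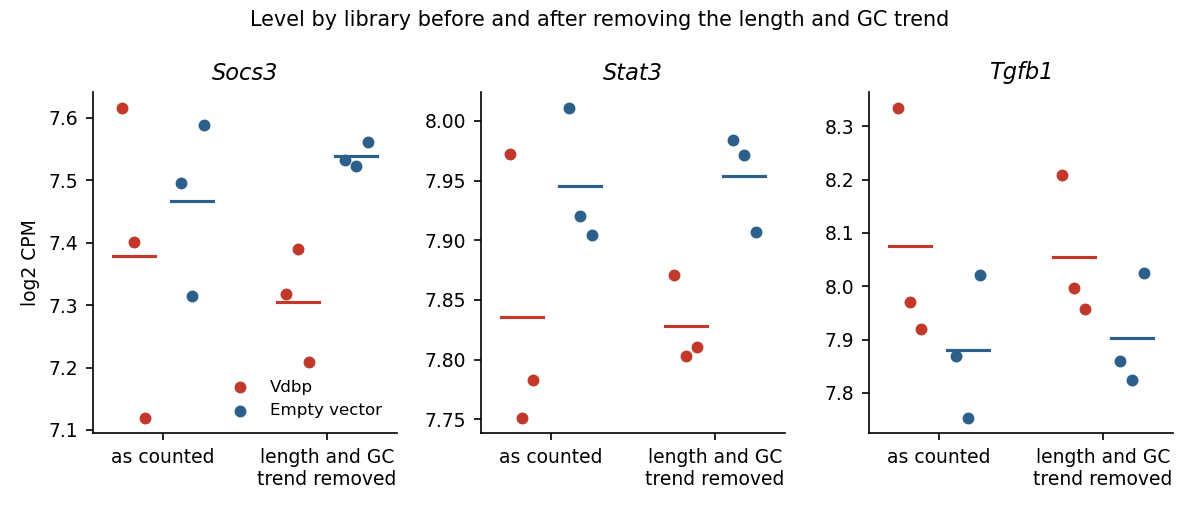
Level of Socs3, Stat3 and Tgfb1 in log2 CPM (y axis, own scale for each gene) in each library, as counted and after a trend with gene length and GC content was removed. Vdbp points are left of empty-vector points and bars are means of 3. After the removal Socs3 lies at 7.21 to 7.39 in Vdbp libraries and at 7.52 to 7.56 in empty-vector libraries, while Tgfb1 still overlaps.

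Removing the trend with gene length and GC content changed the picture of Socs3 most. Its GC content of 58.7% is the highest of the 10 genes. With the trend removed Socs3 stood at 7.32, 7.39 and 7.21 log2 CPM in Vdbp replicates 1, 2 and 3, and at 7.53, 7.52 and 7.56 log2 CPM in empty-vector replicates 1, 2 and 3, and the groups no longer overlapped. The log2 fold change was −0.23 (SE 0.06, 95% interval −0.36 to −0.10), with an unadjusted edgeR p of 0.0022 and an adjusted p of 0.468, so it did not pass. This fit called 0.0156% of all tested genes. It left 8.88% of them below an unadjusted p of 0.05, 4.62% with a negative log2 fold change, and 13.5% had groups that did not overlap. The corrected log2 fold change of Socs3 lay between −0.27 and −0.18 when each library was left out in turn. Stat3 was the only other member below an unadjusted p of 0.05 in this fit. Its corrected log2 fold change was −0.13 (SE 0.06; edgeR unadjusted p = 0.0408, adjusted p = 0.550). It stood at 7.87, 7.80 and 7.81 log2 CPM in Vdbp replicates and 7.98, 7.97 and 7.91 log2 CPM in empty-vector replicates, also without overlap. When each library was left out in turn, the corrected log2 fold change of Stat3 lay between −0.15 and −0.11. Its unadjusted edgeR p was 0.103 to 0.123 without Vdbp replicate 2 or 3 or empty-vector replicate 1 or 2. It was 0.0302 without Vdbp replicate 1 and 0.0283 without empty-vector replicate 3. The corrected log2 fold change of Tgfb1 was 0.15 (SE 0.08) and that of Il10 0.09 (SE 0.23), and neither passed.

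The genes whose pattern over the 6 libraries was most like that of Socs3, the member of the highest level, were Prdx5, a peroxiredoxin, H2-Q4, a class I molecule whose close copies make its counts uncertain, and Rps29, a protein of the small ribosomal subunit. Pearson correlations of log2 CPM were 0.99, 0.99 and 0.98, the highest of 9549 protein-coding genes of at least 5 CPM. They describe 6 points that share their libraries and the GC trend.

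The rest of both pathways was described with 10 lists that hold 195 symbols, 194 of them in the table, and 143 genes that were tested and are not among the 10. No gene of the lists passed the test with edgeR (0 of 143). At an unadjusted p under 0.05 there were 16 of the 143 (11.2%), 4 with a log2 fold change above 0 and 12 below, beside 5.35% of all tested genes. DESeq2 called 2 of them, Cd274 and Arg1. In CPM the groups did not overlap in 6 of 18 TGF-beta targets, 5 of 21 other tolerogenic genes and 4 of 24 SMADs and regulators. They did not overlap in 3 of 17 IL-10 response genes, 2 of 14 latency genes and 2 of 10 other receptors. It was 1 of 17 kinases, STATs and regulators, 1 of 9 IL-10 and gp130 family genes, 1 of 14 Il10 transcription factors and 0 of 7 SOCS genes. The share of all tested genes was 10.9%. The lists were chosen with earlier results of these data known, so these counts and shares are a description and no test of the pathways. The median log2 fold change of the 143 was −0.04, beside −0.01 for all tested genes.

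**Figure D4:**
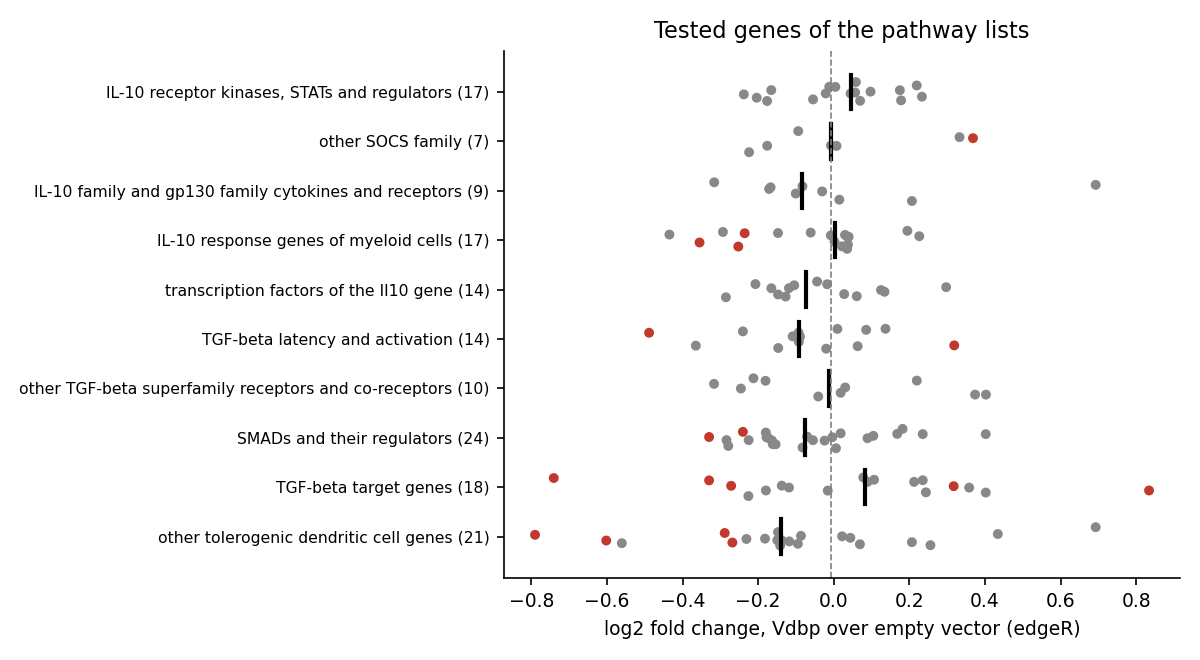
Log2 fold change (x axis, Vdbp over empty vector) of every tested gene of the 10 pathway lists, with the number of tested genes in brackets. Black bars are list medians, the dashed line is the median of all tested genes (−0.01), and red points are genes with an unadjusted p under 0.05, none of which passed after adjustment. List medians lie between −0.14 and 0.08.

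On the IL-10 side, kinases of the Jak family, STATs, phosphatases and Pias proteins were mostly present, a set wider than the pathway of the IL-10 receptor. Of 18 such genes 17 were tested, 0 had an unadjusted p under 0.05, and the median log2 fold change was 0.04. Ptpn6, a phosphatase that dampens cytokine signalling in blood cells, was the most abundant at 149 ± 11.7 FPKM in Vdbp cells and 139 ± 6.25 FPKM in empty-vector cells. Jak1, the kinase bound to Il10ra, averaged 36.3 ± 3.55 FPKM in Vdbp cells and 41.0 ± 2.18 FPKM in empty-vector cells, and Stat6, the STAT of the IL-4 receptor, 33.0 ± 1.46 and 32.9 ± 1.57 FPKM in the same order. Tyk2, the kinase bound to Il10rb and named here for that role after its values were seen, averaged 10.02 ± 1.27 FPKM in Vdbp cells and 8.87 ± 0.55 FPKM in empty-vector cells. All 7 other SOCS family genes were tested, and their median log2 fold change was −0.01. Of the 7, 1 had an unadjusted edgeR p under 0.05, beside 5.35% of all tested genes. Socs7, Socs4 and Socs5 had the highest levels, at 4.29 to 5.73 FPKM in Vdbp means and 4.57 to 5.75 FPKM in empty-vector means, far under those of Socs3. Cish, a SOCS family gene induced through STAT5, stood at 12.9, 12.1 and 10.9 CPM in Vdbp replicates and 8.48, 8.27 and 11.1 CPM in empty-vector replicates. Its log2 fold change was 0.37 (SE 0.16; edgeR unadjusted p = 0.0374, adjusted p = 0.781).

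Few other cytokines and receptors of the IL-10 and gp130 families were counted. Of 22 genes 9 were tested, 5 had 0 counts in all libraries and 0 had an unadjusted p under 0.05, with a median log2 fold change of −0.08. Ebi3, a subunit of IL-27 and IL-35, averaged 30.8 ± 5.37 FPKM in Vdbp cells and 26.7 ± 2.61 FPKM in empty-vector cells, and Osm, the cytokine oncostatin M, 14.2 ± 1.90 and 14.5 ± 2.29 FPKM in the same order. Il6st, the shared receptor chain gp130, averaged 8.55 ± 0.32 FPKM in Vdbp cells and 9.59 ± 0.52 FPKM in empty-vector cells. Of 16 transcription factors known to act on the Il10 gene, 14 were tested, with a median of −0.07 and 0 at an unadjusted p under 0.05. Cebpb led with 370 ± 43.0 FPKM in Vdbp cells and 301 ± 81.6 FPKM in empty-vector cells, followed by Ets2 (44.7 ± 2.69 and 46.0 ± 1.76 FPKM) and Hif1a (37.0 ± 8.32 and 42.6 ± 7.14 FPKM).

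Genes that IL-10 is known to induce in myeloid cells had a median log2 fold change of 0.00 over 17 tested of 19. It was −0.11 without Vdbp replicate 1 and −0.06 with the length and GC trend removed. Of these, 3 had an unadjusted p under 0.05, beside 5.35% of all tested genes, all with less RNA in Vdbp cells, and none passed. Il1rn, the antagonist of the IL-1 receptor, stood at 143, 151 and 151 CPM in Vdbp replicates and 179, 187 and 164 CPM in empty-vector replicates (log2 fold change −0.25, SE 0.09). Tnfaip3, the NF-kB inhibitor A20, stood at 41.6, 43.3 and 44.0 CPM in Vdbp replicates and 51.1, 51.1 and 49.4 CPM in empty-vector replicates (−0.24, SE 0.10). Il7r stood at 21.5, 23.5 and 28.0 CPM in Vdbp replicates and 29.8, 34.8 and 28.6 CPM in empty-vector replicates (−0.36, SE 0.13). With the trend removed the log2 fold change of Il1rn was −0.13 (edgeR unadjusted p = 0.112). That of Tnfaip3 was −0.18 (edgeR unadjusted p = 0.0212) and that of Il7r −0.23 (edgeR unadjusted p = 0.0157). The groups did not overlap in these 3 genes of the 17, beside 10.9% of all tested genes, and their edgeR adjusted p was 0.781. Of the macrophage markers given above, Lyz2 and Adgre1 went the same way and C5ar1 the other, and their part in these differences was not tested. Saa3, Hmox1 and Fcgr1 had the highest levels of the list, at 376 ± 99.3, 229 ± 22.6 and 84.4 ± 2.18 FPKM in Vdbp cells and 392.1 ± 20.7, 253 ± 20.2 and 84.2 ± 7.52 FPKM in empty-vector cells.

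On the TGF-beta side, 14 of 25 genes of latency and activation were tested, and their median log2 fold change was −0.09. Below an unadjusted edgeR p of 0.05 were 1 with more RNA in Vdbp cells and 1 with less, beside 5.35% of all tested genes. Thbs1, thrombospondin 1, a matrix protein that can activate latent TGF-beta, stood at 16.5, 15.7 and 15.7 CPM in Vdbp replicates and 22.1, 23.0 and 21.9 CPM in empty-vector replicates. Its log2 fold change was −0.49 (SE 0.11, edgeR unadjusted p = 0.00100, adjusted p = 0.781). With the length and GC trend removed it was also −0.49 (edgeR unadjusted p = 8.58e-05, adjusted p = 0.178), and it passed in neither fit. Ltbp3, which ties the latent complex to the matrix, stood at 80.9, 63.9 and 57.6 CPM in Vdbp replicates and 56.8, 47.9 and 57.6 CPM in empty-vector replicates. Its log2 fold change was 0.32 (SE 0.13; edgeR unadjusted p = 0.0361, adjusted p = 0.781), 0.18 with the trend removed and 0.17 without Vdbp replicate 1. Vdbp replicate 3 and empty-vector replicate 3 were almost equal in Ltbp3. The most abundant genes of the list were Itgb1 (110.1 ± 12.9 FPKM in Vdbp cells and 117 ± 5.12 FPKM in empty-vector cells), Mmp9 (71.8 ± 11.1 and 72.8 ± 4.53 FPKM) and Mmp14 (30.6 ± 3.06 and 32.6 ± 1.48 FPKM). Of the anchors of latent TGF-beta on cell surfaces, named after their values were seen, Nrros averaged 21.5 ± 2.19 FPKM in Vdbp cells and 20.6 ± 1.34 FPKM in empty-vector cells, whereas Lrrc32 had 0 counts in every library.

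Receptors and SMADs of the wider family were present without a call. Of 13 other receptors 10 were tested (median log2 fold change −0.01), and the type I receptors Bmpr1a (11.6 ± 2.22 FPKM in Vdbp cells and 13.4 ± 2.53 FPKM in empty-vector cells), Acvr1b (7.44 ± 0.70 and 7.34 ± 0.46 FPKM) and Acvr1 (6.03 ± 0.12 and 6.20 ± 0.31 FPKM) were the most abundant. Of 25 SMADs and regulators 24 were tested, with a median of −0.08. Strap, Tab2 and Ski had the highest levels, at 74.7 ± 8.43, 17.8 ± 2.53 and 15.5 ± 1.23 FPKM in Vdbp cells and 77.5 ± 2.93, 20.8 ± 2.20 and 14.6 ± 0.69 FPKM in empty-vector cells. Tgif1 and Skil, both repressors of SMAD-driven transcription, were the 2 of the 24 with an unadjusted p under 0.05. The share of all tested genes was 5.35%. Tgif1 stood at 59.6, 60.5 and 58.4 CPM in Vdbp replicates and 73.9, 72.6 and 64.4 CPM in empty-vector replicates (log2 fold change −0.24, SE 0.10; −0.15 with the trend removed). Skil stood at 14.9, 20.6 and 20.3 CPM in Vdbp replicates and 22.8, 24.9 and 22.5 CPM in empty-vector replicates (−0.33, SE 0.14; −0.19 with the trend removed and −0.19 without Vdbp replicate 1). The edgeR adjusted p of both was 0.781.

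Known target genes of TGF-beta did not move in one direction. Of 26 symbols 25 were in the table and 18 tested, and the median log2 fold change of 0.08 became −0.01 with the length and GC trend removed and 0.00011 without Vdbp replicate 1. Below an unadjusted p of 0.05 were 2 of the 18 with more RNA in Vdbp cells, Tgfbi and Id3. With less RNA there were 3, Ldlrad4, Klf10 and Skil, and none passed. Of all tested genes 5.35% were below that value. Id3, an inhibitor of basic helix-loop-helix factors, stood at 87.3, 72.7 and 71.2 CPM in Vdbp replicates and 61.3, 57.9 and 66.4 CPM in empty-vector replicates (0.32, SE 0.11; 0.20 with the trend removed). Klf10, a repressor induced early by TGF-beta, stood at 28.5, 33.2 and 31.7 CPM in Vdbp replicates and 36.6, 38.4 and 37.8 CPM in empty-vector replicates (−0.27, SE 0.11). Tgfbi and Ldlrad4, an inhibitor of TGF-beta signalling, were at most 2.57 and 3.25 CPM in any library, with log2 fold changes of 0.83 (SE 0.35) and −0.74 (SE 0.31). Tgfbi was at 0.54 without empty-vector replicate 1 and Ldlrad4 at −0.43 without empty-vector replicate 3. Dusp4, Junb and Cdkn1a had the highest levels of the list, at 91.5 ± 6.73, 94.2 ± 16.8 and 70.5 ± 8.89 FPKM in Vdbp cells and 92.5 ± 5.40, 81.2 ± 15.8 and 66.7 ± 3.62 FPKM in empty-vector cells.

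Of 32 other genes tied to tolerogenic dendritic cells, 21 were tested, and their median log2 fold change was −0.14, −0.07 with the trend removed and −0.055 without Vdbp replicate 1. An unadjusted edgeR p under 0.05 was found for 4 of the 21, all with less RNA in Vdbp cells, beside 5.35% of all tested genes. Gpnmb, Lgals1 and Hmox1 were the most abundant, with Gpnmb at 1038 ± 120.2 FPKM in Vdbp cells and 1141 ± 35.1 FPKM in empty-vector cells and Lgals1, galectin 1, at 827 ± 91.0 and 692 ± 93.0 FPKM. The retinoic acid enzyme Aldh1a2 had 0 counts in all libraries, as did Il12a, a subunit of IL-12 and IL-35, both named after their values were seen. For Cd274, which encodes PD-L1, the log2 fold change was −0.60 (SE 0.10), and for Arg1, arginase 1, it was −0.79 (SE 0.13), with an edgeR adjusted p of 0.601 for both. Both were called by DESeq2 and by edgeR with the trend removed. Pirb, an inhibitory receptor, stood at 34.0, 32.8 and 33.2 CPM in Vdbp replicates and 40.5, 43.9 and 37.7 CPM in empty-vector replicates (−0.29, SE 0.11). Dab2, an endocytic adaptor, stood at 329, 323 and 360.5 CPM in Vdbp replicates and 423, 448 and 349 CPM in empty-vector replicates (−0.27, SE 0.11), with 1 empty-vector library within the Vdbp range, and neither passed.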

How the data were processed

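RNA of 6 libraries was analysed, and the submitters' processing notes name HISAT2 and StringTie without a version. The sources used here give neither the counting tool nor the genome build. The authors deposited raw counts for each Ensembl gene ID beside FPKM values, which equalled count over gene length up to 1 constant per library. Of the gene IDs, 99.9% were in GENCODE M21 (GRCm38), where start and end were identical for 98.3%, including all 10 genes described. The members and lists were chosen with earlier results of these data known.

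In R 4.3.3, edgeR 4.0.16 was run on genes kept by filterByExpr (minimum count 10, total 15, proportion 0.7) with TMM scaling and group as the only term. CPM used the TMM-adjusted library size, and SDs are over 3 libraries. Alternatives were RLE scaling, DESeq2 1.42.0, no filter, a replicate block, limma 3.58.1 on log2(FPKM + 1) and log2(FPKM + 0.1) at a mean of at least 0.5 FPKM in either group, each library left out, and an offset that removed a smooth trend (mgcv 1.9.3) on gene length and on the GC content of the longest GENCODE M21 transcript. The offset with each library left out was added after seeing the data. Named genes were the 10 members, Gc, genes of the pathway and marker lists at an unadjusted p under 0.05, the 3 tested genes of the highest mean FPKM in each list (for the T cell, B cell, neutrophil and fibroblast markers only sums are given), and the 3 genes most like Socs3. Promoters are those of RefSeq (GRCm38.p6), which matched 6 of the 10 genes in 7 windows. Count intervals cover counting error only.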

Additional observations from a re-analysis of the deposited data

How the results depend on the processing

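No member passed under any alternative (0 genes in all 19 fits), and 9 of the 10 lists held no called gene in any of 13. The list of other tolerogenic genes held 2 called genes with DESeq2, 2 with no filter and 2 with the length and GC offset, and 0 to 1 when a library was left out. Over all genes the count was 0, and it was 4 with DESeq2, 89 with no filter, 2 with the offset and 0 to 22 when a library was left out (1 without empty-vector replicate 2 and 22 without empty-vector replicate 3); the cause was not tested. Il10ra, Il10rb, Tgfb1, Tgfbr1 and Stat3 kept their sign in all 19 alternatives. Il10 reversed without Vdbp replicate 3 (−0.15, and −0.044 with the offset), without empty-vector replicate 1 (−0.075) and without empty-vector replicate 3 (−0.0085), with a range of −0.15 to 0.16 over libraries left out and up to 0.27 with the offset. Tgfbr2 reversed without Vdbp replicate 2 (0.030, and 0.043 with the offset) and, with the offset, without empty-vector replicate 2 (0.017), with a range of −0.053 to 0.030 over libraries left out. Socs3 reversed without Vdbp replicate 3 (0.043), with a range of −0.20 to 0.043 over libraries left out and −0.27 to −0.18 with the offset. The cause of these reversals was not tested. The 16 list genes with a printed fold change reversed in no alternative, but they were chosen by p. List medians moved by more than the spread between libraries in 12 cases, in 6 of the 10 lists. The median of the kinases, STATs and regulators (0.04) became −0.041 with the offset, −0.029 without Vdbp replicate 1 and −0.0042 without empty-vector replicate 3. That of the other SOCS genes (−0.01) became −0.075 without Vdbp replicate 2 and 0.064 without Vdbp replicate 3. That of the IL-10 and gp130 families (−0.08) became −0.16, 0.0033 and −0.024 without empty-vector replicates 1, 2 and 3.

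Deviations from the group means correlated at 0.14, 0.03 and −0.27 for replicate numbers 1, 2 and 3. The highest correlation, 0.35, was between Vdbp replicate 3 and empty-vector replicate 2. Vdbp replicate 1 correlated best with empty-vector replicate 3 (0.22). The libraries also differed in their GC relation, so these correlations cannot tell if the replicate numbers pair the libraries. The fit with the replicate block called 0 genes. Depth limited Il10, Tgfb2 and Tgfb3 most.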
